A study of Mus musculus with 4 samples.

Results

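The colony stimulating factors and their receptors were followed as 9 genes chosen by name: the ligands *Csf1*, *Il34*, *Csf2*, *Csf3* and *Kitl* and the receptors *Csf1r*, *Csf2ra*, *Csf2rb* and *Kit*. All 9 were matched by gene ID among the 31950 gene IDs that both gene expression libraries shared. The libraries held cells of the small intestinal lamina propria of 12-week-old mice, measured with 10x Genomics 5′ single-cell RNA-Seq, and compared WT mice with A20ZF7 mice. A20ZF7 mice were homozygous whole-body knock-ins, whose point mutations stop the seventh zinc finger of A20, a regulator of NF-κB signalling, from binding linear ubiquitin. Each genotype was 1 library of 2 pooled mice, with a hashtag antibody for each mouse. From each genotype 60000 cells were collected, after a negative selection kit for T cells and innate lymphoid cells (ILCs), so the number of cells of other types depended on what passed that selection. The comparison asked in which cells each factor and receptor was transcribed and whether its level differed between the genotypes.

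Colony stimulating factors are cytokines that keep myeloid and mast cells alive and direct their differentiation. CSF1 and IL-34 both act through the receptor tyrosine kinase CSF1R on macrophages. GM-CSF, the product of *Csf2*, acts through a specific alpha chain (*Csf2ra*) and a beta chain (*Csf2rb*) that also serves IL-3 and IL-5. G-CSF, the product of *Csf3*, drives neutrophil production, and stem cell factor, the product of *Kitl*, acts through KIT, which mast cells need for survival. In the gut, ILC3s are known as a source of GM-CSF, and stromal cells as a source of CSF1 and stem cell factor.

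After filtering, 14722 WT cells with a median of 1060 UMIs (unique molecular identifiers, counted molecules) and 43162 A20ZF7 cells with a median of 853 UMIs were left. With 1 library per genotype no test was possible. A level is given as CPM, the count of a gene scaled to 1e+06 UMIs of all cells of a class in a library, with an exact Poisson 95% interval, and a ratio is A20ZF7 over WT with an exact conditional 95% interval. These intervals cover counting error only, and not the difference between mice. Among the WT cells, 3476 were assigned to WT mouse 1 and 4086 to WT mouse 2, and 7160 had no hashtag call. The antibody files of the 2 genotypes were identical, so antibody counts were read for WT cells only, and the A20ZF7 mice could not be told apart. The 2 libraries shared 1042 barcodes among those that passed the other filters, counted before WT barcodes with 2 hashtags were removed. Clusters were named by marker lists that held none of the 9 genes, and these genes were left out of the clustering. In 6 clusters over 90% of the cells came from 1 library, among them fibroblast-like cluster 9 (2211 WT cells and 109 A20ZF7 cells, 1543 of the WT cells without a hashtag call) and cluster 0 (557 and 6202 cells). Free RNA was measured in barcodes with under 100 UMIs, and its level is given beside each gene.

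*Where ligands and receptors were found.* The stromal classes held most of the UMIs of *Csf1*, *Il34* and *Kitl*, the ILC classes the largest parts of *Csf2* and *Kit* in WT, and the macrophage or monocyte-like cells most of *Csf1r*. Fibroblast-like cells held 77.7% of the *Csf1* UMIs in WT and 73.2% in A20ZF7. They held 67.7% and 66.7% of the *Il34* UMIs, and 55.5% and 63.3% of the *Kitl* UMIs. *Csf2* was spread more widely: ILC3-like cells held 38.5% of its UMIs in WT and 27.1% in A20ZF7, ILC2-like cells held 23.6% and 14.4%, and fibroblast-like cells held 12.6% and 19.5%. Of the *Csf1r* UMIs, 80.6% in WT and 79.1% in A20ZF7 were in macrophage or monocyte-like cells. The chains of the GM-CSF receptor had unlike shares in WT. Fibroblast-like cells held 64.7% of the *Csf2ra* UMIs, and macrophage or monocyte-like cells 34% of the *Csf2rb* UMIs, followed by endothelial-like cells with 29.8%. In A20ZF7 fibroblast-like cells held 222 of the 498 *Csf2ra* UMIs and macrophage or monocyte-like cells 134. Of the 511 *Csf2rb* UMIs of A20ZF7, macrophage or monocyte-like cells held 254 and endothelial-like cells 88. These shares depend on how many cells of each class were captured. A level does not depend on that number, but it depends on which kinds of cells the class held.

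**Figure D1:**
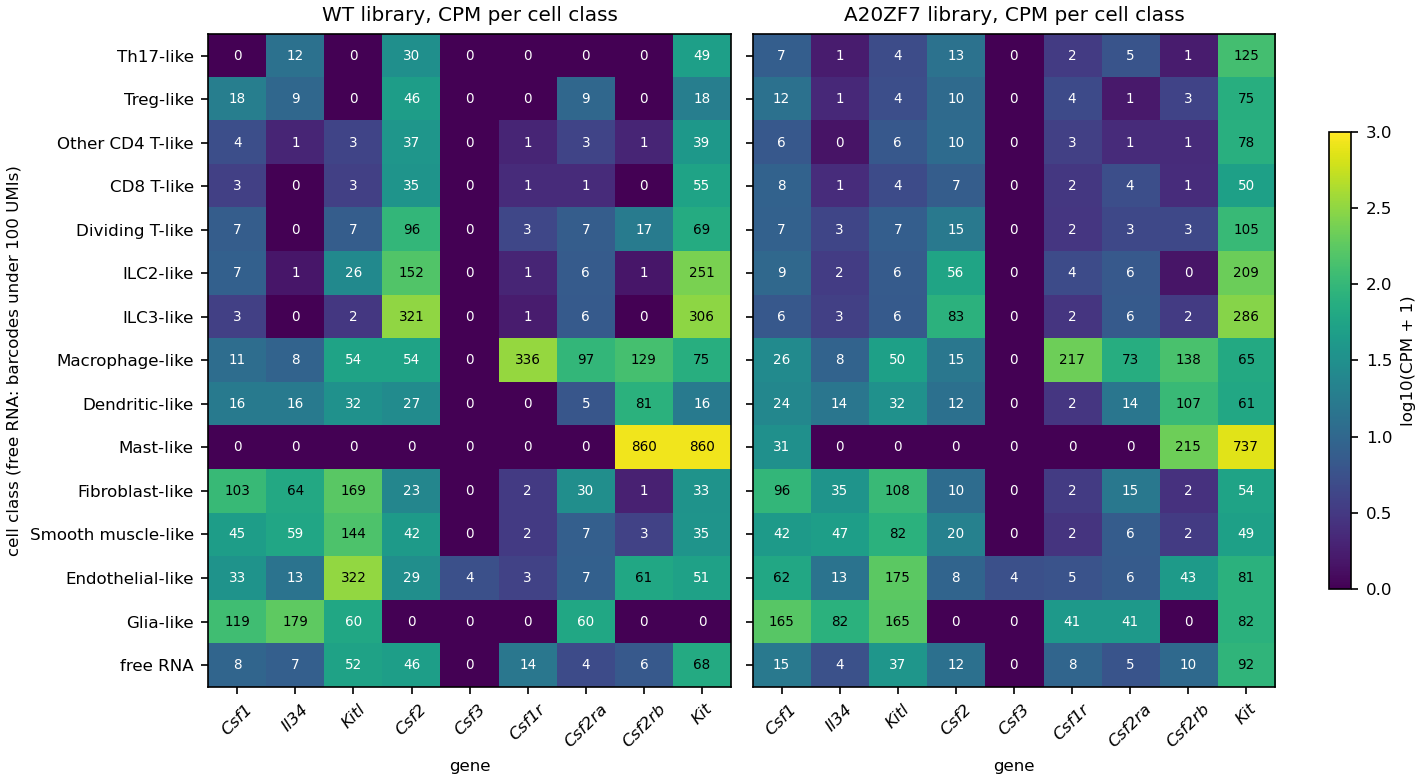
Level of each of the 9 genes (columns, in CPM, printed in each cell) by cell class (rows) in the WT library (left) and the A20ZF7 library (right), coloured on a log10(CPM + 1) scale. The last row is free RNA. *Csf2* at 321 CPM in WT and 83 CPM in A20ZF7 ILC3-like cells, *Csf1r* at 336 and 217 CPM in macrophage or monocyte-like cells, and *Kitl* across the stromal classes stand out. Mast-like and glia-like rows rest on 4 to 37 cells.

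*Csf2.* *Csf2* (chromosome 11, 54247271 to 54249667, minus strand, GRCm38) encodes GM-CSF and was lower in A20ZF7 than in WT in both ILC classes. In ILC3-like cells the level was 321 CPM (95% interval 292 to 351, 471 UMIs in 1396 cells) in WT and 83.4 CPM (72.7 to 95.2, 218 UMIs in 3168 cells) in A20ZF7. In ILC2-like cells it was 152 CPM (135 to 171) in WT and 56.1 CPM (46.4 to 67.3) in A20ZF7. The intervals of the genotypes did not overlap in either class, and the ratios were 0.26 (0.22 to 0.306) and 0.368 (0.294 to 0.458). ILC3-like cells stood above ILC2-like cells in both libraries, beyond the counting intervals. The lower level was not particular to the ILC classes. The ratio was 0.272 (0.147 to 0.511) in macrophage or monocyte-like and 0.283 (0.139 to 0.569) in endothelial-like cells. In fibroblast-like cells it was 0.457 (0.364 to 0.575), and in smooth muscle or myofibroblast-like cells 0.475. Plasma-like cells had 1.54 (0.766 to 3.35). Free RNA also held less *Csf2* in A20ZF7, and its part in these ratios was not tested.

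The T cell classes were close to free RNA for *Csf2*. Free RNA held 46.4 CPM of *Csf2* in WT (38.2 to 56) and 11.8 CPM in A20ZF7 (7.31 to 18). The 173 Th17-like cells of WT held 5 *Csf2* UMIs, or 30.3 CPM, against 12.5 CPM (9.38 to 16.4) in A20ZF7. Treg-like, other CD4 T-like and CD8 T-like cells had 34.6 to 45.8 CPM in WT and 6.64 to 10.2 CPM in A20ZF7. Their intervals overlapped that of free RNA in the same library. The ratios of these 3 classes were 0.192 to 0.277, with intervals below 1, and that of Th17-like cells was 0.413 (0.166 to 1.32). The part of free RNA in these levels was not tested. *Kitl*, at 52.4 CPM in the free RNA of WT, was at 2.04 CPM in ILC3-like cells and had 0 UMIs in the Th17-like and Treg-like cells of WT. In these 2 classes 3 UMIs, the floor used here, would be 18.2 and 27.5 CPM. Dividing T-like cells in WT stood above free RNA, at 95.8 CPM (64.1 to 138, 29 UMIs in 154 cells), against 15.4 CPM (11.8 to 19.7) in A20ZF7. Over all T and innate lymphocytes the level was 152 CPM in WT and 25.8 CPM in A20ZF7, a ratio of 0.169 (0.151 to 0.189). The T cell classes made up more of these cells in the A20ZF7 library, and the ILC3-like class itself held cells with T cell genes, as described below.

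**Figure D2:**
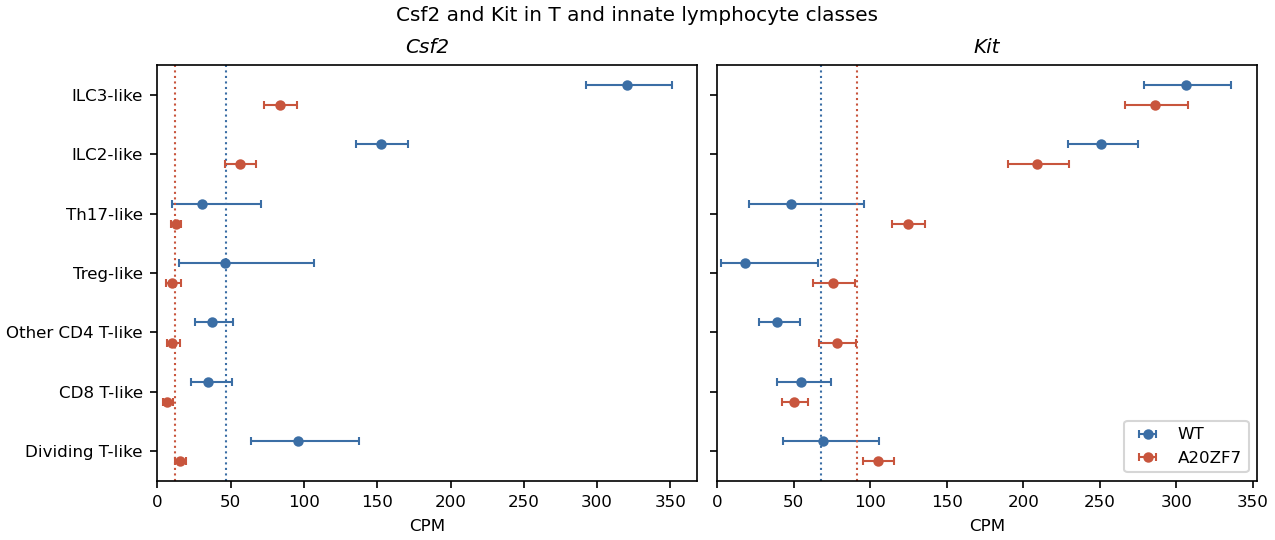
*Csf2* (left) and *Kit* (right) in CPM (x axis) for each T and innate lymphocyte class (rows) in WT (blue) and A20ZF7 (red). Bars are exact Poisson 95% intervals and dotted lines the level in free RNA of the same library. *Csf2* in ILC3-like cells is at 321 CPM in WT and 83.4 CPM in A20ZF7, while *Kit* there is at 306 and 286 CPM.

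The share of cells with a *Csf2* UMI followed the level. Of the ILC3-like cells 16.0% in WT (median depth 896 UMIs) and 5.33% in A20ZF7 (708 UMIs) had a *Csf2* UMI, against 1.74% and 1.04% of the deeper fibroblast-like cells (1119 and 1033 UMIs). With each cell thinned to 500 UMIs, which left out 0 WT and 658 A20ZF7 ILC3-like cells, the shares were 11.3% and 3.87%. In ILC2-like cells 8.11% and 4.01% had a *Csf2* UMI, and 5.43% and 2.53% after thinning (0 and 250 cells left out). The difference between the genotypes was seen at equal depth as well.

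ILC3-like cells of the 2 libraries lay in different sub-clusters, which differed in *Csf2*. The cluster was divided again, into 7 sub-clusters. Of these, 1 was led by CD8 T cell genes (315 WT and 789 A20ZF7 cells, with 160 and 64.3 CPM of *Csf2*). Another was led by Treg and Th17 genes (50 and 993 cells, with 138 and 69 CPM), 1 by gamma-delta T cell genes and 1 by fibroblast genes. Only 2, sub-clusters 0 and 3, kept the ILC3 list as their highest, by a small lead. Its mean log2 fold over the other sub-clusters was 0.474 in sub-cluster 0 (plasma list 0.3365) and 0.494 in sub-cluster 3 (epithelial list 0.41). Sub-cluster 3, led by *Pcp4*, *Cxcl2* and *Tnf*, held 814 WT cells and 70 A20ZF7 cells, and had 478 CPM of *Csf2* (431 to 529) in WT and 53.5 CPM (3 UMIs) in A20ZF7. Sub-cluster 0, led by *Serpine2* and *Il17f*, held 56 WT and 1088 A20ZF7 cells, and had 67 CPM (3 UMIs) in WT and 136 CPM (110 to 168) in A20ZF7. Sub-cluster 3 held 370 of the 471 *Csf2* UMIs of WT ILC3-like cells, and 419 of its 814 WT cells had no hashtag call. Over both sub-clusters the level was 456 CPM (411 to 504) in WT and 130 CPM (105 to 160) in A20ZF7, a ratio of 0.285 (0.224 to 0.359). Gamma-delta T-like cells had 9 *Csf2* UMIs in 118 WT cells and 3 in 101 A20ZF7 cells.

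The intervals of the 2 WT mice overlapped for *Csf2*. In ILC3-like cells WT mouse 1 had 272 CPM (108 UMIs), WT mouse 2 had 261 CPM (146 UMIs), and the cells without a hashtag call had 424 CPM (217 UMIs). In ILC2-like cells the values were 160, 139 and 166 CPM. Each of the 6 values lay above those of the A20ZF7 library, at 83.4 and 56.1 CPM. The cells without a hashtag call raised the WT level of ILC3-like cells, and with called cells alone the ratio over T and innate lymphocytes was 0.204 (0.18 to 0.231).

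*Il5*, the gene of the eosinophil growth factor IL-5, was lower together with *Csf2* in ILC2-like cells. It lies on the same chromosome as *Csf2* (chromosome 11, 53720794 to 53725106, plus strand), and its level was 110 CPM (209 UMIs) in WT and 20.8 CPM (43 UMIs) in A20ZF7, a ratio of 0.189 (0.133 to 0.263). *Il3*, the neighbour of *Csf2*, had 0 UMIs in each of the classes examined. Since *Csf2* and *Il5* were both lower in the same class, the 250 bases before the annotated RefSeq start of each are shown, 5′ to 3′ on the strand of the gene, as given by RefSeq for GRCm38.p6. Capitals mark a match to AGATAA, a single form of the GATA motif.
Csf2, chr11:54249900-54250149, minus strand: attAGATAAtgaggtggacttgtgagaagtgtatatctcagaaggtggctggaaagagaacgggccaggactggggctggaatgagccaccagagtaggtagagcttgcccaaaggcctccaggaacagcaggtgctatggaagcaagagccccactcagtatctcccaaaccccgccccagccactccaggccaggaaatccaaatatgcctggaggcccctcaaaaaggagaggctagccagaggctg
Il5, chr11:53720544-53720793, plus strand: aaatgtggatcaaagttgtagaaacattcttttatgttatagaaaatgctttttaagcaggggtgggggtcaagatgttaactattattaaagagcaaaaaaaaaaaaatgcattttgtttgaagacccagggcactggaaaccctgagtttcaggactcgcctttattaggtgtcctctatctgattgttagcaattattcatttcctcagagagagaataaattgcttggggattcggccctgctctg
The *Csf2* window held 1 match to AGATAA, 247 to 242 bases before the start, and the *Il5* window none. Other forms of the GATA motif were not searched, and the *Il5* window holds ctatct, which reads AGATAG on the other strand. AGATAA was present on either strand in 10.3% of all 27025 promoter windows of this length. No match to the NF-κB letters GGGANNNNCC (17.3% of all windows), the AP-1 letters TGANTCA (6.87%) or TATAAA (13%) was found in either window. These counts describe the letters of these windows only. The RefSeq start of *Csf2* lies upstream of the start in the gene annotation used for the coordinates above, at 54249667, so the bases just before that second start are outside the window and were not searched.

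*Csf1 and Il34.* *Csf1* (chromosome 3, 107741048 to 107760469, minus strand), the main macrophage growth factor, was at a like level in the fibroblast-like and smooth muscle or myofibroblast-like cells of both genotypes and higher in the endothelial-like cells of A20ZF7. Over all stromal-like cells it was at 82.8 CPM (77.2 to 88.5, 842 UMIs) in WT and 86.3 CPM (82.2 to 90.5, 1666 UMIs) in A20ZF7, a ratio of 1.04 (0.959 to 1.13). Fibroblast-like cells led with 103 CPM (95.2 to 111) and 95.8 CPM (91 to 101). Smooth muscle or myofibroblast-like cells had 45.3 and 42.2 CPM and endothelial-like cells 33.4 and 61.8 CPM, a ratio of 1.85 (1.18 to 3.03). In lymphocyte and myeloid classes *Csf1* was at 0 to 26 CPM, close to the 8.44 CPM (WT) and 15.2 CPM (A20ZF7) of free RNA. A higher level in A20ZF7 was not particular to endothelial-like cells. Plasma-like cells had 4.58 and 23.4 CPM, a ratio of 5.11 (2.48 to 12.2). Epithelial-like cells had 3.7 and 16.9 CPM, a ratio of 4.58 (1.41 to 14.4). The part of free RNA in these ratios was not tested. The order fibroblast, smooth muscle, endothelial held in WT, where the intervals of the last 2 overlapped, and in A20ZF7 endothelial-like cells came second, with an interval that overlapped that of smooth muscle or myofibroblast-like cells.

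Among the endothelial-like clusters, the interval of the *Csf1* ratio lay above 1 in cluster 20, led by *Selp*, *Madcam1* and *Ackr1*, genes of vessels that let leukocytes in. *Csf1* was at 45.5 CPM there (25.5 to 75.1, 15 UMIs in 198 cells) in WT and at 129 CPM (102 to 162, 74 UMIs in 359 cells) in A20ZF7, a ratio of 2.84 (1.62 to 5.33). In endothelial-like cluster 15, led by *Fabp4* and *Flt1*, it was at 18.2 CPM (6 UMIs) and 34 CPM (44 UMIs), a ratio of 1.87 (0.794 to 5.37). Endothelial-like cluster 24 had 2 and 10 *Csf1* UMIs. Whether the ratios of these clusters differ was not tested. In the 5 fibroblast-like clusters the ratio was 0.89 to 1.27, and every one of these intervals included 1. The WT mice differed in fibroblast-like cells, at 97.7 CPM in mouse 1, 72.1 CPM in mouse 2 and 117 CPM in cells without a hashtag call, a spread larger than the difference between the libraries. With WT cells of called hashtags alone, the ratio over stromal-like cells was 1.26 (1.11 to 1.42), and it was 1.26 (1.14 to 1.39) when cells were taken by marker UMIs in each barcode, so an even level was not seen under those choices.

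*Il34* (chromosome 8, 110741829 to 110805924, minus strand), the other ligand of CSF1R, was lower in A20ZF7 stromal cells. Over all stromal-like cells it was at 59.6 CPM (54.9 to 64.5, 606 UMIs) in WT and 33.7 CPM (31.1 to 36.4, 650 UMIs) in A20ZF7, a ratio of 0.565 (0.505 to 0.632). In fibroblast-like cells it was at 64.1 and 34.5 CPM, and in smooth muscle or myofibroblast-like cells at 59.3 and 46.9 CPM, where the ratio of 0.79 (0.61 to 1.02) included 1. *Il34* was concentrated in 2 fibroblast-like clusters, 7 and 12. Cluster 7, led by *Mmp10*, *Saa3* and *Cxcl14*, had 167 CPM (145 to 192) in WT and 77.5 CPM (66.8 to 89.4) in A20ZF7. Cluster 12, led by *Sox6*, *Pdgfra* and *Bmp5*, had 167 CPM (142 to 196) and 98.8 CPM (84.1 to 115). In both clusters the intervals of the genotypes were apart. In fibroblast-like cluster 6, led by *Igfbp6* and *Pi16*, *Il34* was at the level of free RNA in both libraries, with 5 and 14 UMIs. The WT mice were close together in fibroblast-like cells, at 69.7 and 68.9 CPM, with 60.3 CPM in cells without a hashtag call, all above the 34.5 CPM of A20ZF7. The largest fibroblast-like cluster differed between the libraries (cluster 9 in WT, with 2211 of 5336 cells, and cluster 0 in A20ZF7, with 6202 of 12436 cells), and *Il34* was low in both of them, at 19.8 CPM in WT cluster 9 and 19.9 CPM in A20ZF7 cluster 0.

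**Figure D3:**
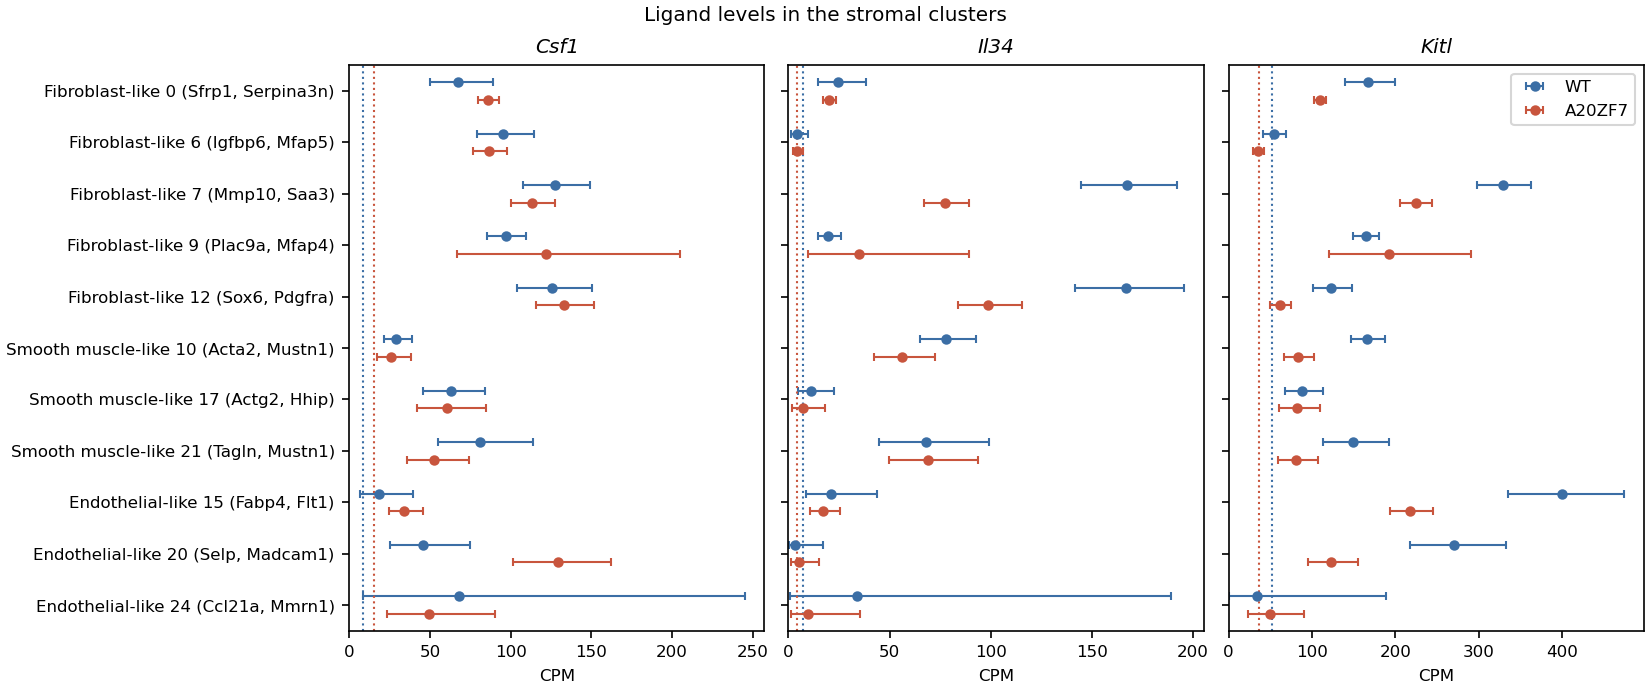
*Csf1*, *Il34* and *Kitl* (panels, in CPM on the x axis) in each stromal cluster (rows, with 2 leading genes) in WT (blue) and A20ZF7 (red). Bars are exact Poisson 95% intervals and dotted lines free RNA. *Csf1* differs mainly in endothelial-like cluster 20 (45.5 and 129 CPM), *Il34* in clusters 7 and 12, and *Kitl* is lower in A20ZF7 in most clusters.

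*Kitl.* *Kitl* (chromosome 10, 100015630 to 100100416, plus strand), the gene of stem cell factor, was lower in A20ZF7 in all 3 large stromal classes. Over all stromal-like cells it was at 172 CPM (164 to 180, 1752 UMIs) in WT and 112 CPM (107 to 117, 2163 UMIs) in A20ZF7, a ratio of 0.651 (0.611 to 0.693). Endothelial-like cells had the highest level, 322 CPM (281 to 367) in WT and 175 CPM (157 to 194) in A20ZF7. Fibroblast-like cells followed with 169 and 108 CPM, and smooth muscle or myofibroblast-like cells with 144 and 82.2 CPM. The order was the same in both libraries and the intervals of neighbouring classes did not overlap. Free RNA held 52.4 CPM in WT and 36.5 CPM in A20ZF7, and the myeloid classes were near that level, at 31.7 to 53.8 CPM.

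The highest *Kitl* levels of the stromal clusters were in endothelial-like cluster 15, at 400 CPM (334 to 474) in WT and 218 CPM (193 to 245) in A20ZF7, and in fibroblast-like cluster 7, at 329 CPM (297 to 363) and 224 CPM (206 to 244), and the intervals of these clusters overlapped in both libraries. In 8 of the 11 stromal clusters the interval of the ratio lay below 1 (clusters 0, 6, 7, 10, 12, 15, 20 and 21), with ratios of 0.453 to 0.682. In the other 3 it included 1: fibroblast-like cluster 9 (164 and 192 CPM, ratio 1.17, 0.724 to 1.79), smooth muscle-like cluster 17 (88.4 and 82 CPM, ratio 0.927) and endothelial-like cluster 24, led by *Ccl21a* and *Prox1*, with 1 WT UMI. Cluster 6, at 54 and 34.9 CPM, was at the level of free RNA. Without the stromal clusters 0 and 9, each mostly of 1 library, the ratio was 0.643 (0.594 to 0.697). The WT mice had 172 and 148 CPM in fibroblast-like cells and 327 and 287 CPM in endothelial-like cells, and each of these 4 values lay above that of A20ZF7 in the same class. Of the endothelial-like cells 32.0% in WT and 17.0% in A20ZF7 had a *Kitl* UMI, against 0.215% and 0.41% of the ILC3-like cells.

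Outside the stroma, ILC2-like cells held *Kitl* at 25.9 CPM (19.1 to 34.2, 49 UMIs) in WT and 6.29 CPM (3.35 to 10.8, 13 UMIs) in A20ZF7, a ratio of 0.243 (0.121 to 0.455). Both levels were below free RNA, and its part in them was not tested. ILC3-like cells, in the same libraries, had 2.04 and 6.12 CPM. The WT mice had 26.2 and 23 CPM in ILC2-like cells. Epithelial-like cells of WT had 80.6 CPM (69 to 93.5).

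*Csf3.* *Csf3* (chromosome 11, 98701263 to 98703629, plus strand), the gene of G-CSF, was rare, with 12 UMIs in all kept cells, 3 in WT and 9 in A20ZF7. All 12 were in endothelial-like cells, 2 (WT) and 7 (A20ZF7) in cluster 20 and 1 and 2 in cluster 15. Free RNA held 0 *Csf3* UMIs in both libraries. The levels over endothelial-like cells were 4.35 CPM in each, and a difference was not detectable at this depth, as the ratio of 0.999 had an interval of 0.249 to 5.74. *Csf3r*, the receptor, was at 14.3 CPM (8 UMIs) in WT and 17 CPM (40 UMIs) in A20ZF7 myeloid-like cells.

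*Csf1r.* *Csf1r* (chromosome 18, 61100598 to 61132149, plus strand), the receptor for CSF1 and IL-34, was found in macrophage or monocyte-like cells, at 336 CPM (280 to 401, 125 UMIs in 270 cells) in WT and 217 CPM (196 to 240, 401 UMIs in 1413 cells) in A20ZF7. Other classes with over 100 cells in both libraries had at most 4.83 CPM, below the 14.4 CPM (WT) and 8.43 CPM (A20ZF7) of free RNA. The ratio in macrophage or monocyte-like cells was 0.646 (0.527 to 0.796). Over both myeloid clusters it was 0.763 (0.623 to 0.94), from 224 CPM in WT and 171 CPM in A20ZF7. The WT mice had 330 and 286 CPM and cells without a hashtag call 426 CPM, all above the 217 CPM of A20ZF7.

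The myeloid clusters were mixed, and the *Csf1r* ratio depended on which cells were counted. On dividing the clusters again, sub-cluster 0 (91 WT and 435 A20ZF7 cells) had the macrophage or monocyte list as its highest. It was led by *S100a9*, *S100a8*, *Ccl6* and *Lyz2*, of which *S100a9* and *S100a8* are on the list of granulocyte markers. *Csf3r* was at 32.5 CPM (4 UMIs) in WT and 58.3 CPM (28 UMIs) in A20ZF7 there. The part of granulocyte-like cells in the values of this sub-cluster was not tested. Most other sub-clusters were led by T cell, fibroblast, smooth muscle, endothelial or dividing cell genes and stayed unnamed. In sub-cluster 0 *Csf1r* was at 706 CPM (565 to 871) in WT and 485 CPM (425 to 552) in A20ZF7, a ratio of 0.688 (0.535 to 0.89). In the unnamed sub-clusters together it was at 89.1 and 103 CPM, a ratio of 1.16 (0.801 to 1.72). When cells were instead taken by marker UMIs in each barcode, without clusters, the ratio over myeloid cells was 1.02 (0.765 to 1.38), so a lower level was not seen under that choice. With WT cells of called hashtags alone it was 0.863 (0.682 to 1.1). The summed level of the 12 macrophage markers in myeloid-like cells was 4684 CPM in WT and 3412 CPM in A20ZF7, and that of the 6 pan-T markers 728 and 1240 CPM, and their part in the *Csf1r* ratio was not tested. *Tyrobp*, an adaptor gene of myeloid cells, had a ratio of 0.499 (0.465 to 0.537) in myeloid-like cells. Of its 1119 WT UMIs there, 642 were in dendritic-like cluster 22, with a ratio of 0.373 (0.334 to 0.417). In sub-cluster 0 the *Tyrobp* ratio was 0.709 (0.619 to 0.814). Of the macrophage or monocyte-like cells 25.2% in WT and 20.3% in A20ZF7 had a *Csf1r* UMI, against 0.262% and 0.249% of fibroblast-like cells at like depth (medians of 1033 to 1119 UMIs).

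*GM-CSF receptor chains.* *Csf2ra* (chromosome 19, 61223957 to 61228429, minus strand), the GM-CSF-specific chain, was highest in macrophage or monocyte-like cells, at 96.9 CPM (67.8 to 134, 36 UMIs) in WT and 72.6 CPM (60.8 to 86, 134 UMIs) in A20ZF7, a ratio of 0.749 (0.515 to 1.11). The difference was within the counting error. Fibroblast-like cells were the second class, at 29.6 CPM (25.6 to 34, 200 UMIs) in WT and 14.7 CPM (12.9 to 16.8, 222 UMIs) in A20ZF7, a ratio of 0.498 (0.41 to 0.606). Both lay above free RNA, at 3.8 and 5.06 CPM. In fibroblast-like clusters 7 and 12 the ratios were 0.521 (0.326 to 0.835) and 0.432 (0.233 to 0.789). In clusters 0, 6 and 9 the intervals included 1. The WT level of *Csf2ra* in fibroblast-like cells differed by hashtag call: cells without a call had 35.5 CPM, and WT mouse 1 and WT mouse 2 had 18.9 CPM (12.3 to 28) and 23.8 CPM (16.8 to 32.9), of which the first overlapped the interval of A20ZF7. The part of the cells without a call in the ratio was not tested. Lymphocyte classes with over 1000 cells in both libraries had 1.34 to 6.33 CPM.

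*Csf2rb* (chromosome 15, 78325752 to 78353847, plus strand), the signalling chain, was at a like level in myeloid cells of both genotypes, at 113 CPM (86.8 to 144, 63 UMIs) in WT and 131 CPM (117 to 146, 308 UMIs) in A20ZF7, a ratio of 1.16 (0.882 to 1.55). Among the myeloid sub-clusters the highest level was in dendritic-like sub-cluster 4, led by *Cst3*, *Xcr1* and *Ccl22*, at 312 CPM (13 UMIs in 17 cells) in WT and 302 CPM (240 to 376, 80 UMIs in 145 cells) in A20ZF7. Macrophage or monocyte-like sub-cluster 0 had 187 and 185 CPM. Sub-cluster 3, led by *Siglech*, a gene of plasmacytoid dendritic cells, had 119 and 162 CPM. *Csf1r* was near 0 in sub-clusters 4 and 3 in A20ZF7, with 3 UMIs in sub-cluster 4 and 0 in sub-cluster 3. In WT the 17 cells of sub-cluster 4 also held 3 *Csf1r* UMIs, or 72 CPM (14.8 to 210). *Csf2ra* was at 96 and 106 CPM in sub-cluster 4 but at 9.93 and 12.2 CPM in sub-cluster 3, from 1 and 3 UMIs. The WT mice differed in macrophage or monocyte-like cells, at 147 and 69.6 CPM, and the cells without a hashtag call had 197 CPM, a range that includes the 138 CPM of A20ZF7. With WT cells of called hashtags alone the ratio over myeloid-like cells was 1.42 (1.02 to 2.03).

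*Csf2rb* was also present in endothelial-like cells, mainly in cluster 20, with 100 CPM (68.9 to 141, 33 UMIs) in WT and 133 CPM (105 to 166, 76 UMIs) in A20ZF7. In cluster 15 it was at 27.2 CPM (9 UMIs) and 9.27 CPM (12 UMIs). *Csf2ra* was at 7.25 and 6.28 CPM in endothelial-like cells. Fibroblast-like cells, with *Csf2ra*, had only 0.888 and 1.66 CPM of *Csf2rb*, below free RNA at 5.91 and 9.55 CPM, so both chains stood above free RNA in macrophage or monocyte-like cells, and only *Csf2ra* did in fibroblast-like cells. *Csf2rb* has a near-identical neighbour, *Csf2rb2* (chromosome 15, 78282507 to 78305721, minus strand), and how reads were split between them is uncertain. *Csf2rb2* in myeloid-like cells was at 69.9 CPM in WT and 36.2 CPM in A20ZF7, a ratio of 0.517 (0.35 to 0.776). Of its 39 WT UMIs there, 28 were in dendritic-like cluster 22, with a ratio of 0.684 (0.424 to 1.125). In sub-cluster 0 the *Csf2rb2* ratio was 0.727 (0.274 to 2.25), and both of these intervals included 1.

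**Figure D4:**
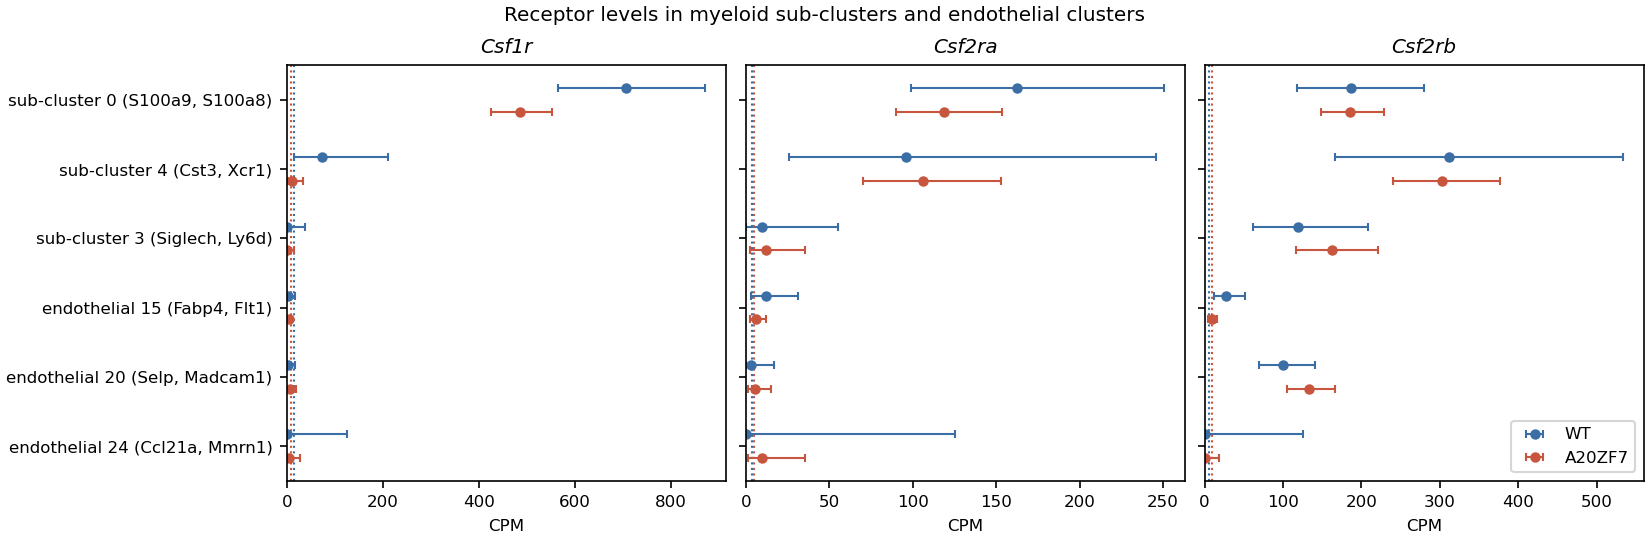
*Csf1r*, *Csf2ra* and *Csf2rb* (panels, in CPM on the x axis) in 3 myeloid sub-clusters and 3 endothelial-like clusters (rows) in WT (blue) and A20ZF7 (red). Bars are exact Poisson 95% intervals and dotted lines free RNA. Of these, *Csf1r* is highest in sub-cluster 0 (706 and 485 CPM), and *Csf2rb* is also seen in sub-clusters 3 and 4 and in endothelial-like cluster 20.

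*Kit.* *Kit* (chromosome 5, 75574916 to 75656722, plus strand), the receptor of stem cell factor, was highest in mast-like cells, at 860 CPM (234 to 2201, 4 UMIs in 4 cells) in WT and 737 CPM (472 to 1097, 24 UMIs in 37 cells) in A20ZF7. The ratio of 0.858 (0.295 to 3.4) shows that 4 WT cells cannot resolve a difference. *Csf2rb* was found in the same cells, with 4 and 7 UMIs, and the other 7 genes had 0 or 1 UMI. The class was taken barcode by barcode from cluster 25 (24 WT and 75 A20ZF7 cells), as the barcodes with more mast than glia markers. Mast markers were therefore present in it by choice. Of the 12, 9 in WT and 10 in A20ZF7 had UMIs, and *Mcpt9* and *Tpsab1* were at 0 in both, and *Tpsb2* in WT. *Mcpt1*, a protease of mucosal mast cells, was at 31370 CPM (146 UMIs) in WT and 11490 CPM (374 UMIs) in A20ZF7. T and innate lymphocytes held 500 and 489 *Mcpt1* UMIs and stromal-like cells 2 and 431, so the class did not hold all mast cell RNA. Taking any barcode with 3 mast markers gave 8 WT and 76 A20ZF7 cells and a *Kit* ratio of 0.527 (0.285 to 1.04).

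ILC3-like and ILC2-like cells came next for *Kit*, with a level that was lower in A20ZF7 in ILC2-like cells and within the counting error in ILC3-like cells. ILC3-like cells had 306 CPM (279 to 336) in WT and 286 CPM (266 to 308) in A20ZF7, a ratio of 0.935 (0.831 to 1.05). ILC2-like cells had 251 CPM (229 to 275) and 209 CPM (190 to 230), a ratio of 0.832 (0.729 to 0.95). *Kit* therefore did not follow *Csf2*, whose ratio was 0.26 in the same ILC3-like cells. In the 2 sub-clusters with ILC3 genes *Kit* was at 379 CPM in WT and 407 CPM in A20ZF7, a ratio of 1.07 (0.911 to 1.27). Of the ILC3-like cells 25.6% in WT and 20.6% in A20ZF7 had a *Kit* UMI, and 14.8% and 13.2% after thinning to 500 UMIs. Plasma-like cells, which should lack *Kit*, had 4.05% and 7.19% at median depths of 2856 and 1214 UMIs.

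In the CD4 T cell classes *Kit* was higher in A20ZF7, which was not particular to them. Plasma-like cells had 17.2 CPM in WT and 49.8 CPM in A20ZF7, a ratio of 2.9 (1.96 to 4.42). Epithelial-like cells had 15.3 and 60.5 CPM, a ratio of 3.96 (2.26 to 6.87). These 4 levels were below free RNA. Dendritic-like cells had a ratio of 3.81 (1.19 to 19.5, 3 WT UMIs) and macrophage or monocyte-like cells 0.863 (0.568 to 1.35). Free RNA held 67.6 CPM (57.5 to 78.9) in WT and 91.6 CPM (78.1 to 107) in A20ZF7. Th17-like cells had 48.5 CPM (21 to 95.7, 8 UMIs) in WT and 125 CPM (114 to 136, 527 UMIs) in A20ZF7, a ratio of 2.57 (1.29 to 5.98). The A20ZF7 level was above that of free RNA, with intervals that did not overlap. Other CD4 T-like cells had 39.1 and 78 CPM, and Treg-like cells 18.3 CPM (2 UMIs) and 75.5 CPM, which were not above free RNA. In CD8 T-like cells (54.6 and 50.4 CPM) and dividing T-like cells (69.4 and 105 CPM) the intervals of the ratio, 0.648 to 1.34 and 0.978 to 2.47, included 1.

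The same was seen in stromal cells, where *Kit* was at 35 CPM in WT and 56.5 CPM in A20ZF7, below free RNA in both. In fibroblast-like cells it was at 33.5 CPM (29.2 to 38.1) and 54.1 CPM (50.5 to 58). The WT level differed by hashtag call: WT mouse 1 had 52.3 CPM and WT mouse 2 had 43.2 CPM in fibroblast-like cells, and the cells without a call had 23.2 CPM. The part of the cells without a call in the ratio was not tested. The summed level of the 6 pan-T markers, genes of other cells, was 371.5 CPM in WT and 1121 CPM in A20ZF7 over all stromal-like cells. The part of such RNA in the *Kit* level was not tested either.

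*Surface protein.* The antibody panel held CD117, the KIT protein, and CD115, the CSF1R protein, which could be read in WT cells. CD117 was at 13040 (antibody UMIs scaled in the same way to all antibody UMIs of the class) in the 4 mast-like cells (median of 17 UMIs), at 4163 in ILC3-like and 3646 in ILC2-like cells and at 2572 to 3680 in the other classes. Mast-like cells stood apart, and ILC3-like cells were little above the remaining classes, although their *Kit* RNA was above that of every T cell class. CD115 was at 638 in macrophage or monocyte-like cells and at 396 to 598 in the other classes, with a median of 1 UMI per cell in each. In the 91 cells of macrophage or monocyte-like sub-cluster 0 it was at 757, with a median of 2 UMIs. Control antibodies without a target (IgG1, IgG2a and IgG2b) were at 2424, 2580 and 944 in macrophage or monocyte-like cells. In sub-cluster 0 they were at 2189, 2477 and 946, so CD115 lay below each control in both. CD117 lay above each control in ILC3-like cells (2601, 2752 and 1094) and ILC2-like cells (2629, 2723 and 1096), but also in the other classes.

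*The 9 genes against all genes, and their pathway.* A gene was counted as past 2-fold where it had at least 20 UMIs over both libraries in a class and a ratio below 0.5 or above 2. In T and innate lymphocytes 8 of the 9 genes had enough UMIs. Of these, 1 (*Csf2*) was past 2-fold lower in A20ZF7, where 5.22% of all genes were. Another 2 (*Il34* with 5 and 35 UMIs, *Csf1r* with 6 and 49) were past 2-fold higher, where 6.55% of all genes were. Both were below free RNA in each library, *Il34* at 0.887 and 1.78 CPM and *Csf1r* at 1.06 and 2.49 CPM. The *Il34* ratio of 2.01 had an interval of 0.783 to 6.56. In ILC2-like cells 2 of 5 (*Csf2*, and *Kitl*, which was below free RNA in both libraries) were past 2-fold lower, against 4.23% of all genes. In ILC3-like cells 1 of 3 (*Csf2*) was, against 3.23%. In stromal-like cells 1 of 8 (*Csf2*, at or below free RNA) was lower and 0 were higher, against 7.11% and 7.67% of all genes. In myeloid-like cells 1 of 8 (*Csf2*, near free RNA in both libraries) was lower and 1 (*Csf1*, with 7 and 60 UMIs) higher, against 3.38% and 8.51%. The interval of that *Csf1* ratio, 0.928 to 5.27, included 1. The median ratio over all genes was 0.999 in T and innate lymphocytes, 0.947 in stromal-like and 1.08 in myeloid-like cells, and over the genes of the set it was 1.14, 0.847 and 0.949.

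**Figure D5:**
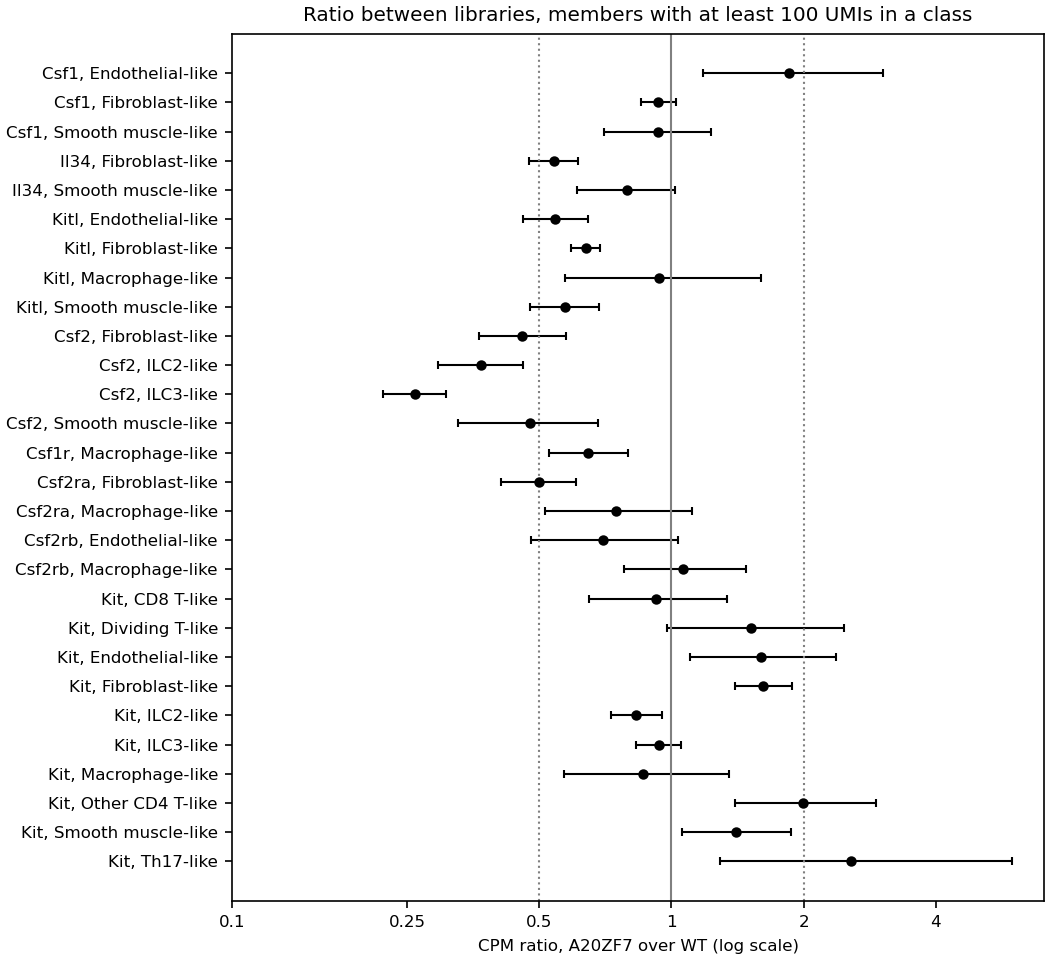
Ratio of CPM, A20ZF7 over WT, on a log x axis for each gene and class with at least 100 UMIs over both libraries (rows). Plasma-like, epithelial-like and unnamed cells and rows with very few WT UMIs are not drawn. Bars are exact conditional 95% intervals, the solid line is 1 and the dotted lines are 2-fold. Of the rows drawn, *Csf2* in ILC3-like (0.26) and ILC2-like cells (0.368) lies farthest below 1, and *Kit* in Th17-like cells (2.57) farthest above. The *Kit* ratios of plasma-like cells (2.9) and Treg-like cells (4.12, from 2 WT UMIs), which are not drawn, were higher.

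Of 28 genes listed beside them as partners (other ligands and receptors, JAK-STAT signalling, lineage and upstream genes), those past 2-fold were counted in the same way. In T and innate lymphocytes 3 of 23 with enough UMIs were lower (*Il5*, *Tyrobp* and *Mcpt1*) and 0 higher, against 5.22% and 6.55% of all genes. In ILC2-like cells 1 of 19 was lower (*Il5*) and 3 were higher, against 4.23% and 5.0% of all genes. The 3 were *Socs3*, a feedback inhibitor of cytokine receptors (ratio 2.61, 1.73 to 4.03), *Il1r1*, the IL-1 receptor (2.1, 1.65 to 2.7), and *Il23r*, the IL-23 receptor (3.25, 2.65 to 4). In myeloid-like cells 1 of 22 was lower (*Tyrobp*) and 2 were higher (*Flt3l* and *Il23r*), against 3.38% and 8.51% of all genes. In stromal-like cells 1 of 24 was lower (*Il5*) and 7 were higher, against 7.11% and 7.67% of all genes. In fibroblast-like cells 11 of 24 were higher and 1 lower (*Il5*), against 8.12% and 4.94% of all genes. In smooth muscle or myofibroblast-like cells 7 of 20 were higher and 1 lower (*Il5*), against 7.51% and 4.55%. Of the 7 in stromal-like cells, *Spi1*, *Mcpt1*, *Cpa3* and *Il23r* are genes of blood cells, as the pan-T markers above are. *Stat5b*, which carries GM-CSF and KIT signals, had a ratio of 1.58 (1.49 to 1.68) in T and innate lymphocytes, and *Nfkb1*, an NF-κB gene, had 1.38 (1.33 to 1.43). *Bhlhe40*, needed by T cells to make GM-CSF, was at 757 and 793 CPM, a ratio of 1.05 (1.01 to 1.08). In ILC3-like cells its ratio was 0.886 (0.83 to 0.945) and in ILC2-like cells 1.12 (1.04 to 1.21), beside *Csf2* ratios of 0.26 and 0.368.

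*Genes with a like pattern.* Likeness was the mean over the 2 libraries of Pearson's r of log2(CPM + 10) across 16 classes, among 11028 genes. The classes share libraries and depth, so r is a description. The 3 most like *Csf1* were *Ddah2* (r = 0.943), *Pmp22* and *Akap12*, and those most like *Il34* were *Fxyd1* (0.958), *Col18a1* and *Fstl3*. *Kitl* was most like *Cdc42bpb* (0.96), *Nfib* and *Col4a1*. *Csf2* was most like *Dnajc6* (0.89), *Cnnm2* and *Impg1*, and *Kit* like *Cited4* (0.901), *Tmem273* and *Aff4*. *Csf1r* was most like *Ms4a7* (0.984), *Wfdc17* and *C1qb*, genes of macrophages. *Ms4a7* and *C1qb* are on the marker list that named the macrophage or monocyte-like class, so their pattern over classes is partly set by the naming. *Csf2ra* was most like *Apoe* (0.931), *Gdf15* and *Snx24*, and *Csf2rb* like *Alox5ap* (0.882), *Tyrobp* and *Ncf1*. *Csf3* had too few UMIs for this.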

How the data were processed

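Small intestinal lamina propria cells of 1 WT and 1 A20ZF7 library (2 pooled mice each) had been measured with 10x Genomics 5′ single-cell RNA-Seq, surface antibodies and hashtags. The deposited files hold UMI counts per gene or antibody and barcode, which the authors made with Cell Ranger (version 7.1 in their methods, mm10; the headers of the gene expression matrices say 8.0.0), with no normalization. Genes were matched by ID over the 31950 shared IDs. As in the study, barcodes with 200 to 2500 genes and at most 15% mitochondrial counts were kept and WT barcodes with 2 hashtags removed. Cells also needed 676 UMIs in WT and 397 in A20ZF7, which is 0.1 of the level reached by the deepest cells (0.99 quantile). The deposited antibody counts of A20ZF7 were identical to those of WT and were not used. Total UMIs of the kept cells were 20310812 in WT and 46152566 in A20ZF7. Scrublet scores above 0.25 were found for 1.58% and 1.25% of the cells, which were kept in the main values.

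Cells of both libraries were clustered together in Seurat 5.3.0 (R 4.3.3; 2000 variable genes without the 9 genes, 30 components, resolution 0.8, cell cycle regressed). Clusters were named where the mean log2 fold of a marker list over other clusters was at least 0.5. A cluster in which a list of another broad class also reached 0.8 was split barcode by barcode, by the list with more markers present. Sub-clusters were named where a list of their own set (myeloid lists, or ILC3 and gamma-delta T) lay above every other list, with no minimum. The naming rule for clusters was set after the clusters were seen, and rebuilt names may differ from those of the study. UMIs were summed per class and library (python 3.11.15, numpy 2.4.6, scipy 1.17.1, pandas 2.3.3, scanpy 1.11.5). With 1 library per genotype there was no test. Counts had exact Poisson, ratios exact conditional and shares exact binomial 95% intervals; PCR and droplet capture are outside them. A count of 0 was set to 3 UMIs in a ratio. The intervals were checked on simulated Poisson counts only. These hold no spread between mice, so the check cannot show how well the intervals cover it. Named genes were the 9 genes and a list of 28 partner genes, plus the 3 genes most like each. The genes and lists were chosen with earlier results of these data known.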

Additional observations from a re-analysis of the deposited data

Results flagged for a closer look

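*Kit* went opposite ways in 2 cell classes, and this difference was not tested. Its ratio of A20ZF7 over WT was 1.62 in fibroblast-like cells (33.5 and 54.1 CPM) and 0.832 in ILC2-like cells (251 and 209 CPM). In fibroblast-like cells the WT level was 52.3 CPM in mouse 1, 43.2 CPM in mouse 2 and 23.2 CPM in cells without a hashtag call, and all of these were below free RNA at 67.6 CPM. In ILC2-like cells the 3 WT values were 245.5, 254 and 253 CPM.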

How the results depend on the processing

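No paired analysis was possible because each genotype was 1 library and the A20ZF7 mice could not be told apart. Of the alternatives, 57 values stayed within the counting interval of the reported value, 20 moved out of it, and 1 whose interval had excluded 1 changed direction. Each share thinned to 500 UMIs is among those that moved, and thinning takes UMIs away, which by itself lowers a share. The *Csf1r* ratio in myeloid-like cells (0.763) reversed to 1.02 when classes were taken from markers per barcode, and the cause was not tested. The *Csf2* ratio in T and innate lymphocytes (0.169) moved to 0.285 in ILC3-like sub-clusters only, 0.368 in ILC2-like cells only and 0.204 with hashtag-called WT cells only. The *Csf1* ratio in stromal-like cells (1.04) moved to 1.26 with classes from markers per barcode and to 1.26 with hashtag-called WT cells, and the *Kitl* ratio there (0.651) to 0.603 with at least 1000 UMIs per cell and to 0.751 with classes from markers per barcode. The *Csf2rb* ratio in myeloid-like cells (0.938 to 1.42) and the *Kit* ratio in mast-like cells (0.527 to 0.968) stayed within their wide intervals under each alternative. Leaving out the hashtag-called cells of each WT mouse in turn, while cells without a call stayed in, gave 0.149 to 0.157 for *Csf2*, 0.938 to 1.15 for *Csf2rb*, 0.656 to 0.768 for *Csf1r*, 0.967 to 1.02 for *Csf1*, 0.636 to 0.662 for *Kitl* and 0.56 to 0.858 for *Kit*. Thinning to 500 UMIs moved each share of cells with a UMI: in WT and A20ZF7 to 11.3% and 3.87% for *Csf2* in ILC3-like cells, 5.43% and 2.53% for *Csf2* in ILC2-like cells, 14.8% and 13.2% for *Kit* in ILC3-like cells, 14.1% and 11.2% for *Csf1r* in macrophage or monocyte-like cells, 15.3% and 7.95% for *Kitl* in endothelial-like cells and 5.79% and 4.97% for *Csf1* in fibroblast-like cells. The sub-cluster, ILC2-only, hashtag-called, one-library-cluster and mast marker alternatives were chosen after seeing the data. The 4 WT mast-like cells and 3 WT *Csf3* UMIs limit what could be compared.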
